A study of Mus musculus with 6 samples.

Results

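The miR-1a and miR-133a miRNAs of muscle were followed here through 3 of the 49 mature miRNAs listed for mouse C2C12 cells, namely mmu-miR-1a-3p, mmu-miR-133a-3p and mmu-miR-133a-5p, named below without the species prefix. They were taken by name, as each listed miRNA whose name starts with miR-1a or miR-133a, and each has a value, which can be 0, in all 6 libraries. C2C12 is an established line of mouse myoblasts, the dividing precursors of muscle fibres. Small RNA of a wild-type (WT) group was compared with that of a myostatin-knockout (MSTN-KO) group, with 3 libraries each, so that miRNA levels could be compared with and without myostatin, a secreted brake on muscle growth. Both groups are labelled as myoblasts of skeletal muscle grown without a named treatment. The MSTN-KO cells had been electroporated with a CRISPR/Cas9 plasmid against MSTN, and they form a line that the study calls C11. The strain label of all 6 libraries reads C11, so genotype rests on the sample titles and the genotype label. Myostatin mRNA was not analysed here, and no value in the miRNA tables checks which group lacks myostatin. WT and MSTN-KO therefore mean the libraries so labelled, every direction is that of the labels, and an exchange of the group labels would turn each of them around. Which group is truly the knockout was not settled here, so no direction below is shown to follow from the loss of myostatin. Nothing in the labels says that replicates came from separate cultures, so p-values measure the spread between these libraries, which may be technical.

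MicroRNAs (miRNAs) are cut from a hairpin precursor, which can yield a 5p and a 3p strand, and repress messenger RNAs that match their seed, bases 2 to 8. In muscle, miR-1 and miR-133a hairpins lie side by side and are made from a shared primary transcript under the control of myogenic factors such as MyoD, MEF2 and SRF. miR-1 is known for promoting myoblast differentiation, and miR-133a for favouring proliferation and for repressing SRF. The 3p strand is the usual active product of both, while the 5p strand of miR-133a is the minor one. miR-206 and miR-133b form a related pair at another locus, with miR-206 in the seed family of miR-1 and miR-133b nearly identical to miR-133a.

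The mouse genome holds 2 copies of the bicistronic pair. In GENCODE M21 on GRCm38, Mir1a-1 (180389048 to 180389124) and Mir133a-2 (180398379 to 180398482) lie on the plus strand of chromosome 2, 9254 bases apart. RefSeq places both within the span of the long noncoding RNA Mir1a-1hg (180385604 to 180401802). Of the listed miRNAs, 32 had a mature sequence in the RefSeq table (GRCm38.p6), but none of the 3 followed here did. The 3p strands of the related pair on the plus strand of chromosome 1 are printed 5′ to 3′ with the seed in capitals, because miR-206-3p stands for the seed family of miR-1 and miR-133b-3p for that of miR-133a.
miR-206-3p: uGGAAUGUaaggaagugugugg
miR-133b-3p: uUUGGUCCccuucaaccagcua
The former lies at chr1:20679055-20679076 and the latter at chr1:20682834-20682855.

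The promoter of Mir1a-1hg is shown because it is the start site of a transcript that holds both hairpins. No primary transcript was measured and the miRNA values do not separate the copies, so its part in them was not tested. The window runs from 250 bases before to 50 bases after the start at chr2:180385354-180385653 (GRCm38.p6, plus strand), with E-boxes (CANNTG, the core bound by MyoD and its relatives) in capitals.
Mir1a-1hg promoter: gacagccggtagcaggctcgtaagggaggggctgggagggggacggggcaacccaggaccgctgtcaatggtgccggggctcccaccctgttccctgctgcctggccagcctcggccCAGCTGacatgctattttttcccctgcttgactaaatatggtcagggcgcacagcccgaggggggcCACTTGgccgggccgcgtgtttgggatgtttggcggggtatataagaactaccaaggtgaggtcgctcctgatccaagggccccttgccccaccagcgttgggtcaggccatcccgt
It held 2 E-boxes, both before the start site, and the one farther from it is also a CAGCTG match. CANNTG occurred in 72.3% and CAGCTG in 16.3% of 32851 promoter windows of the same length, searched on both strands. At least 2 CANNTG matches were in 39.6% of the windows. No match to CACCTG or CAGGTG (20.2% of windows), to a MEF2 site (3.19%) or to a CArG box, the SRF site (1.63%), was in these letters. The MEF2 site was searched as YTAWWWWTAR and the CArG box as CCWWWWWWGG. Here Y is C or T, W is A or T and R is A or G. Sites that differ from these patterns by a base were not searched, so such sites may be present.

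The other copy of the pair is on the minus strand of chromosome 18, where Mir133a-1 (10782909 to 10782976) and Mir1a-2 (10785481 to 10785552) lie 2504 bases apart. Both are intronic in their host transcript, Mir133a-1hg, which runs antisense within the protein-coding gene Mib1. Mir1b lies on the opposite strand and covers all 72 bases of Mir1a-2. The mature names do not say which copy a read came from, so the values are sums over both.

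The libraries held between 5502214 and 11823489 reads by the steps of the deposited values, which are RPM (reads per 1000000 library reads). The 49 listed miRNAs hold 0.773% to 3.47% of a library and all separate the groups without overlap, so the list is a selection and no neutral background. All 49 also passed an adjusted p of 0.05 (limma). Adjusted p-values and gaps between groups therefore describe the members here and are no independent support for a change. A miRNA read carries no length correction, so reads of different miRNAs were set side by side, without adjusting for how well each is captured. In bulk RNA, fewer cells with a miRNA and fewer copies per cell cannot be told apart.

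miR-1a-3p, the differentiation-linked strand, was far lower in the MSTN-KO group, with the largest fall of the list on the log2(RPM + 1) scale. In the WT group it had 189.8, 245 and 169 RPM in replicates 1 to 3, and in the MSTN-KO group 2.91, 10.8 and 4.71 RPM. The lowest WT library thus lay 15.7 times above the highest MSTN-KO library, and the groups did not overlap. The means were 201 ± 39.2 and 6.14 ± 4.13 RPM (SD, n = 3), a ratio of 32.8, second to the 35.4 of the scarcer miR-301b-5p. On the log2(RPM + 1) scale the difference between MSTN-KO and WT was -4.96 ± 0.37 (SE, limma adjusted p = 3.1e-06 over the 49 miRNAs). It stayed between -4.61 and -5.40 when any single library was left out. These values rest on 1231, 1681 and 1997 reads in the WT libraries against 16, 103 and 41 reads in the MSTN-KO libraries. Among MSTN-KO libraries the highest was 3.71 times the lowest, a wider spread than the 1.45 times in the WT group.

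miR-133a-3p, the proliferation-linked strand of the neighbouring hairpin, was lower by a much smaller amount. The WT libraries had 68.0, 139 and 92.5 RPM, and the MSTN-KO libraries 22.9, 47.5 and 46.7 RPM. The groups did not overlap here either, but the lowest WT library lay 1.43 times above the highest MSTN-KO library. Within each group the highest library led the lowest by more than that, 2.04 times in WT and 2.07 times in MSTN-KO. The means were 99.8 ± 36.0 and 39.0 ± 14.0 RPM (SD, n = 3), a ratio of 2.56. The log2 difference was -1.34 ± 0.34 (SE, limma adjusted p = 0.00394). This fall per library total was not kept under scaling on the listed miRNAs. Rescaling the libraries on the listed miRNAs, which moved the median log2 change of all 49 from -1.07 upward by 0.62 to 1.23, gave miR-133a-3p changes from -0.72 to 0.067 (limma adjusted p from 0.0677 to 0.843). The list is no neutral background, and miR-206-3p, itself lower in MSTN-KO, makes up 79.5% to 90.8% of its total. Such scaling therefore cannot show whether the fall depends on the denominator.

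miR-133a-5p, the minor strand of the same hairpins, was close to the limit of detection. It had 8.17, 6.12 and 1.95 RPM in the WT libraries, or 53, 42 and 23 reads. In the MSTN-KO group it was at 0.524 RPM (5 reads) in replicate 2 and at 0 reads in replicates 1 and 3. A count of 0 allows up to 0.545 RPM in replicate 1 and 0.344 RPM in replicate 3. The WT libraries all lay above the MSTN-KO ones, although WT replicate 1 was 4.2 times WT replicate 3. The limma difference on log2(RPM + 1) was -2.33 ± 0.40 (SE, adjusted p = 0.000443), a scale that compresses so low a miRNA. Taken over the summed reads, 118 in WT against 5 in MSTN-KO, the level was 22.3 times higher in WT (95% exact interval 9.28 to 69.9, counting error only).

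**Figure D1:**
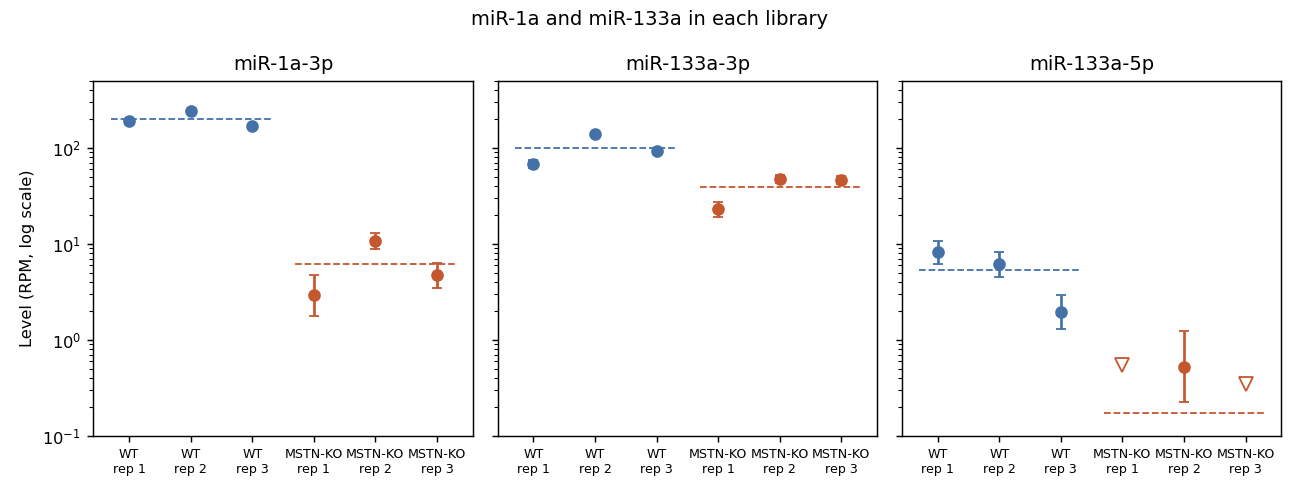
RPM (log axis) of miR-1a-3p, miR-133a-3p and miR-133a-5p in each library, with 95% Wilson intervals for counting error and group means as dashed lines; open triangles mark 0 reads and sit at the RPM of 3 reads. The gap between groups is widest for miR-1a-3p, whose lowest WT library is at 169 RPM and highest MSTN-KO library at 10.8 RPM.

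By the labels, all 3 miRNAs were lower in MSTN-KO at the cut-offs that the study used, p under 0.05 and a log2 fold change past 1 in size. The same holds for 28 of the 49 listed miRNAs (57.1%), while 14 (28.6%) were higher by the same margins. At an adjusted p under 0.05, 35 (71.4%) were lower and 14 (28.6%) higher, and as many in each direction did not overlap between groups, so these counts say nothing particular about miR-1a and miR-133a. All 3 passed the filter of 1 RPM in at least 1 library, miR-133a-5p through its WT libraries alone. Their median log2 change, which is simply that of miR-133a-5p, was -2.33, beside -1.07 over all 49. In the ranking of falls on the log2(RPM + 1) scale, miR-1a-3p was number 1, miR-133a-5p number 7 and miR-133a-3p number 17.

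**Figure D2:**
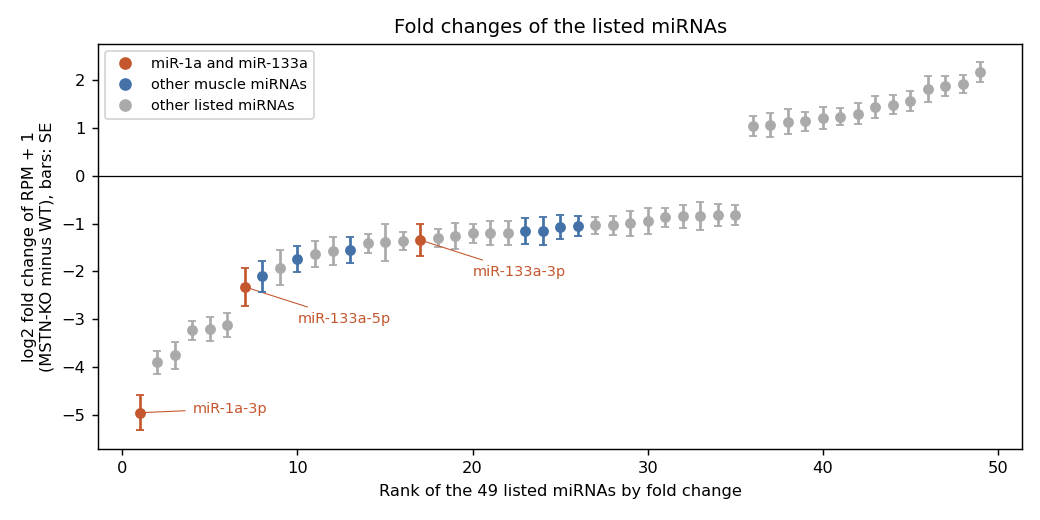
Log2 fold change of RPM + 1 (MSTN-KO minus WT, bars: SE, limma) of the 49 listed miRNAs in rank order, with miR-1a and miR-133a in orange and other muscle miRNAs in blue. miR-1a-3p stands at -4.96 at the lower end, miR-133a-5p at -2.33 and miR-133a-3p at -1.34, the last of which moves to 0.067 when libraries are scaled to the listed total.

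Added up, the 3 strands had 266, 389.9 and 263 RPM in the WT libraries and 25.8, 58.8 and 51.4 RPM in the MSTN-KO libraries. The mean sums were 306 ± 72.3 for WT against 45.3 ± 17.3 for MSTN-KO (SD, n = 3), a log2 difference of -2.82. No sum overlapped between groups (exact two-sided permutation test, p = 0.1, the smallest that 3 against 3 libraries allow). The composition turned over. In each WT library miR-1a-3p was the most read of the 3, with 62.8% to 71.4% of the sum, and in each MSTN-KO library it was miR-133a-3p, with 80.7% to 90.8%. Within the WT group all values of miR-1a-3p lay above those of miR-133a-3p, and within the MSTN-KO group all lay below. Ranked by group mean RPM among all listed miRNAs, miR-1a-3p went from number 6 to 23 and miR-133a-3p from 8 to 11. In the WT group the values of miR-1a-3p overlapped those of miR-1983, next above it, and of miR-133b-3p, next below.

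How far the miRNAs of the shared transcript moved apart was measured by their ratio within each library, which is free of the library total. There were 2.79, 1.76 and 1.83 reads of miR-1a-3p per read of miR-133a-3p in the WT libraries, and 0.127, 0.227 and 0.101 in the MSTN-KO libraries. As a share of the reads of both, miR-1a-3p ran from 63.8% (95% Wilson interval 61.9 to 65.6) to 73.6% (71.5 to 75.7) in WT and from 9.15% (6.82 to 12.2) to 18.5% (15.5 to 22.0) in MSTN-KO. WT replicate 1 and MSTN-KO replicate 2 were the high libraries of their groups, and the groups lay far apart beside that spread. The mean log2 ratio was 1.06 ± 0.37 against -2.81 ± 0.61 (SD, n = 3), a difference of -3.86 ± 0.41 (SE), or 14.6-fold (exact permutation p = 0.1). Each of the 9 pairs of a MSTN-KO and a WT library showed it, with differences from -4.79 to -2.95. This was 1 of 5 ratios tested, none of which could pass 0.05 in this design. Over all 1176 pairs of listed miRNAs, log2 ratios of 66.4% did not overlap between groups, the median size of the change was 2.55, and 22.6% of pairs changed at least as much as this one.

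The related locus on chromosome 1 gives a comparison of the same build, a miR-1 family hairpin beside a miR-133 hairpin, 3686 bases apart in GRCm38. There the log2 ratio of miR-206-3p to miR-133b-3p was 7.22 ± 0.36 in WT and 6.83 ± 0.27 in MSTN-KO (SD, n = 3), and the groups overlapped. The change of the miR-1a-3p to miR-133a-3p ratio exceeded that of the chromosome 1 pair by a log2 difference of -3.48 ± 0.29 (SE), with no overlap between groups (exact permutation p = 0.1, a test chosen after the ratios were seen).

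**Figure D3:**
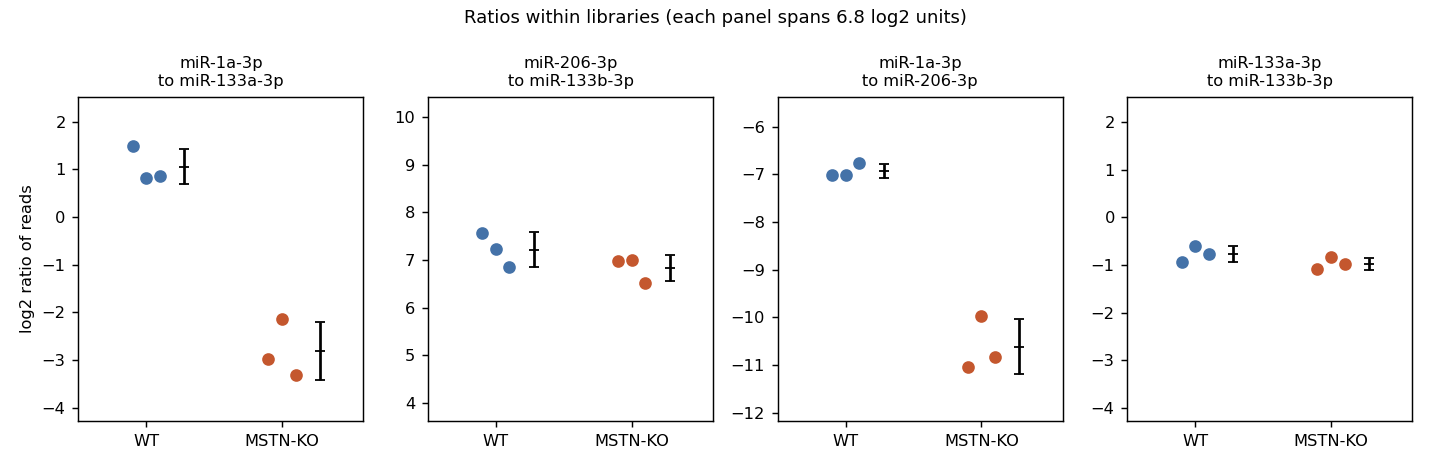
Log2 ratio of reads within each library, WT in blue and MSTN-KO in orange, with the group mean and SD in black; each panel spans the same number of log2 units. The panels with miR-1a-3p fall by 3.86 and 3.68 log2 units, while the groups overlap for miR-206-3p to miR-133b-3p and for miR-133a-3p to miR-133b-3p.

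Against its seed family, miR-1a-3p was a small share that became smaller. miR-206-3p is the most abundant listed miRNA, with 18322 to 31551 RPM in WT and 6143 to 10766 RPM in MSTN-KO. Of the reads of both, miR-1a-3p took 0.764%, 0.770% and 0.913% in the WT libraries and 0.0473%, 0.10% and 0.0552% in the MSTN-KO libraries. The WT libraries were close to each other and far above the MSTN-KO ones. The log2 ratio changed by -3.68 ± 0.34 (SE), or 12.8-fold, without overlap (exact permutation p = 0.1).

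miR-133a-3p kept pace with its near-copy. It took 34.5%, 39.8% and 37.0% of the reads of miR-133a-3p and miR-133b-3p in WT, and 32.0%, 35.9% and 33.6% in MSTN-KO. These values overlapped. The log2 ratio differed by -0.20 ± 0.12 (SE, exact permutation p = 0.2), with pairs of libraries from -0.49 to 0.093 apart. Sequences this similar can trade reads when they are assigned, and how ambiguous reads were counted is not given in the sources used here, so part of each value may belong to the other. miR-133b-3p itself had 166 ± 41.2 RPM in WT and 75.3 ± 23.4 RPM in MSTN-KO (SD, n = 3), a ratio of 2.20 beside the 2.56 of miR-133a-3p.

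The arms of miR-133a were compared in the same way. The 5p arm gave 10.7% (95% Wilson interval 8.30 to 13.8), 4.22% (3.13 to 5.65) and 2.06% (1.38 to 3.07) of the reads of both arms in WT replicates 1, 2 and 3. In the MSTN-KO group it gave 1.09% (0.467 to 2.53) in replicate 2, 0 of 126 reads in replicate 1, which allows a share of up to 2.38%, and 0 of 407 reads in replicate 3, which allows up to 0.737%. The WT libraries thus differed among themselves beyond counting error. WT replicate 3 was within the limits of MSTN-KO replicates 1 and 2 and above that of replicate 3. With 0.5 read added to each count, the log2 ratio of 3p to 5p was 4.36 ± 1.25 in WT and 8.01 ± 1.65 in MSTN-KO (SD, n = 3), a difference of 3.65 ± 1.20 (SE, exact permutation p = 0.1). With zeros set to 3 reads instead, the difference was 1.95 ± 0.88 and the groups overlapped (exact permutation p = 0.2). With 10 RPM added to both arms it turned to -0.58, but that offset exceeds every 5p value, so it mostly reflects the 3p arm. With 0.5 read added, the difference was 2.99 without WT replicate 1 and 2.82 without MSTN-KO replicate 3. It was 4.24 without WT replicate 3 and 4.47 without MSTN-KO replicate 2. A lower 5p share in the MSTN-KO group was therefore not firmly detectable at this depth.

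The 5p arm of miR-133b had 52, 95 and 137 reads in WT replicates 1 to 3 and 4, 27 and 19 reads in the MSTN-KO ones. It took 5.84%, 6.16% and 6.84% of the reads of both arms in WT and 1.47%, 3.23% and 2.30% in MSTN-KO. The WT libraries were alike, the MSTN-KO libraries were all lower, and the log2 ratio of 3p to 5p rose by 1.56 ± 0.34 (SE). The 95% Wilson interval of MSTN-KO replicate 2 (2.23 to 4.66) still overlapped that of WT replicate 1 (4.48 to 7.57). Of the 10 hairpins with both arms listed, miR-133a and miR-133b had the largest changes of this ratio and were the 2 (20.0%) whose groups did not overlap. With 0.5 read added to the arms of miR-133a, its change exceeded that of miR-133b by 2.09 ± 1.18 (SE), with overlap between groups (exact permutation p = 0.2). In the other 8 hairpins the ratio changed by -1.11 to 0.90, with values overlapping between groups. miR-133a-5p and miR-1a-3p, both far lower in MSTN-KO, had a log2 ratio of 5.41 ± 0.95 in WT and 5.22 ± 1.08 in MSTN-KO (SD, n = 3, exact permutation p = 0.7). That comparison also hung on the zeros. With them at 3 reads the difference was -1.92 rather than -0.20, without overlap (exact permutation p = 0.1), and it was 0.30 without WT replicate 3 or without MSTN-KO replicate 2.

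**Figure D4:**
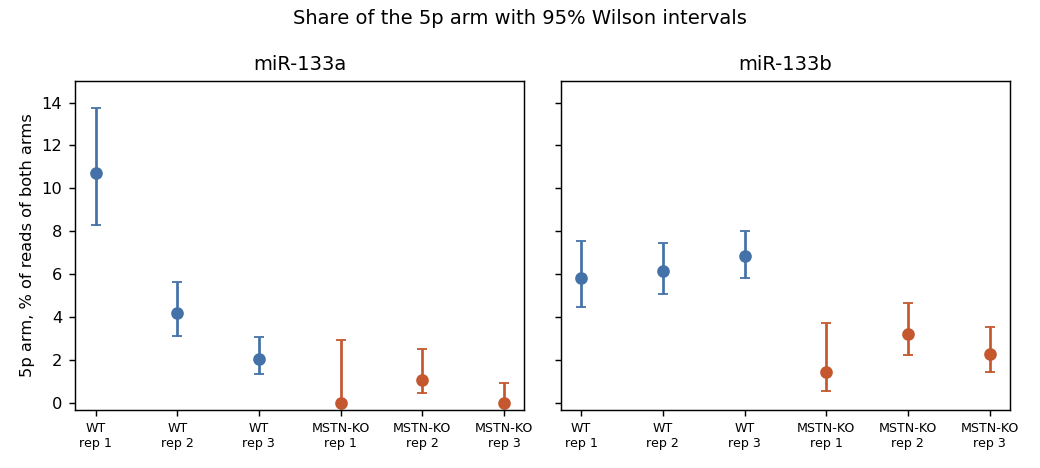
Share of the 5p arm in the reads of both arms (percent, 95% Wilson intervals for counting error) in each library, for miR-133a and miR-133b. WT runs from 2.06% to 10.7% for miR-133a but from 5.84% to 6.84% for miR-133b, and MSTN-KO from 0% to 1.09% and from 1.47% to 3.23%.

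The wider set of muscle miRNAs (miR-1, miR-133, miR-206, miR-208, miR-499 and miR-486) had 10 arms listed, of which 7 are not from miR-1a or miR-133a. All 7 were lower at an adjusted p under 0.05 (limma; 71.4% of the list) and at the fold cut-off, with log2 changes from -2.11 to -1.05 and a median of -1.15. On the log2(RPM + 1) scale miR-1a-3p thus changed by more than each of the other 9 muscle arms. miR-133a-3p lay within their range. Against miR-133a-5p that order was not settled, because miR-133a-5p had 0 reads in MSTN-KO replicates 1 and 3. The log2 ratio of miR-1a-3p to miR-133a-5p changed by -0.20 with 0.5 read added (exact permutation p = 0.7). With zeros set to 3 reads that ratio changed by -1.92. miR-499-5p, from an intron of a myosin heavy chain gene, had 3.98 to 6.12 RPM in WT and 0.182 to 1.15 RPM in MSTN-KO. Of 22 further miRNAs with described roles in myoblasts, 3 were listed with 4 arms. miR-148a-3p, miR-148a-5p and miR-675-3p were lower and miR-181a-1-3p was higher at an adjusted p under 0.05. Of 16 miRNAs typical of other cell types, 2 were listed, and neither was at 0 in any library. miR-9-3p, found in neural cells, and miR-143-5p, from a hairpin active in smooth muscle and fibroblasts, had summed levels of 57.5 to 94.5 RPM in WT libraries and 184.8 to 233.5 RPM in MSTN-KO libraries, and their part in the fall of miR-1a and miR-133a was not tested.

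By Pearson correlation of log2(RPM + 1) over the 6 libraries, miR-1a-3p was most like miR-148a-3p (r = 0.991), miR-130b-5p (0.989) and miR-181d-5p (0.988). miR-133a-3p was most like miR-133b-3p (0.996), miR-23b-5p (0.980) and miR-133b-5p (0.968), and miR-133a-5p was most like miR-669c-5p (0.975), miR-206-3p (0.954) and miR-486a-3p (0.941). These values mostly restate the difference between groups. After each group mean was subtracted, miR-133a-3p still followed miR-133b-3p (r = 0.988), then miR-181d-5p (0.973) and miR-344b-3p (0.972). miR-1a-3p was then nearest to miR-486a-3p (0.930), miR-1933-3p (0.913) and miR-9-3p (0.900), and miR-133a-5p to miR-669c-5p (0.967), miR-335-3p (0.848) and miR-206-3p (0.719). Within groups, miR-133a-3p correlated with miR-1a-3p by 0.705 and with its own 5p arm by 0.065. In MSTN-KO that arm was at 0, 0.524 and 0 RPM, so its correlations within groups hang mostly on the WT libraries. All these correlations are descriptions over 6 libraries that share depth and denominator among all miRNAs.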

How the data were processed

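Total RNA of C2C12 myoblasts was read as small RNA libraries on an Illumina HiSeq instrument. The authors deposited 1 RPM value per miRNA and library. The study's methods speak of FPKM, but 100% of the values above 0 were whole multiples (within 0.01) of 1 step per library, taken here as 1 read, whose inverse gave the library total. Bowtie 0.12.2 and the build mm8 are named in the submitters' processing notes. The miRNA catalogue, the counting rule and the reads in the total are not given in the sources used here. The tables hold no coordinates, and those printed come from GRCm38.

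Groups and replicate numbers came from sample titles. log2(RPM + 1) was fitted with limma 3.58.1 in R 4.3.3 over all 49 miRNAs, with no covariate and Benjamini-Hochberg adjustment, requiring 1 RPM in at least 1 library. The fit and the permutation test were tested on simulated data. Ratios within libraries were compared by exact two-sided permutation tests, adding 0.5 read to both sides in all libraries where either was at 0. A count of 0 was taken to allow 3 reads. Intervals are 95% Wilson or exact and, like these limits, cover counting error only, since reads carry no molecular identifiers. All replicate pairs differed beyond sampling noise (smallest chi-square 456 on 47 degrees of freedom). The named miRNAs are the 3 chosen by name, the listed muscle, myoblast and other-cell-type miRNAs, those next in WT level, hairpins with both arms, and the 3 most correlated with each. Members and lists were chosen with earlier results of these data known. Alternatives covered pseudocounts, filters, scalings, a mean-variance trend, a replicate block and each library left out; setting zeros to 3 reads was added after seeing the data.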

Additional observations from a re-analysis of the deposited data

How the results depend on the processing

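The fall of miR-1a-3p kept its direction and an adjusted p under 0.05 (limma) in each alternative run, with log2 changes from -3.66 to -5.40. That of miR-133a-5p did so from -0.58 to -4.68, except under quantile normalization (-1.66, adjusted p = 0.0534). That of miR-133a-3p did not hold under rescaling on the listed miRNAs, with -0.23 under median-of-ratios scaling, -0.65 for the listed total without miR-206-3p, -0.72 under quantile normalization and 0.067 for the listed total; the list is a small part of each library, and the cause was not tested. With a mean of at least 10 RPM miR-133a-5p was not tested.

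The ratio of miR-133a-3p to miR-133a-5p reversed with 10 RPM added (-0.58), an offset above every value of the 5p arm. That of miR-1a-3p to miR-133a-5p reversed without WT replicate 3 (0.30) and without MSTN-KO replicate 2 (0.30). Leaving out each library gave log2 differences from -5.40 to -4.61 for miR-1a-3p, -1.59 to -1.01 for miR-133a-3p and -2.81 to -1.99 for miR-133a-5p. For ratios the range was -4.20 to -3.61 (miR-1a-3p to miR-133a-3p), 2.82 to 4.47 (miR-133a-3p to miR-133a-5p), -0.77 to 0.30 (miR-1a-3p to miR-133a-5p), -4.00 to -3.46 (miR-1a-3p to miR-206-3p) and -0.29 to -0.12 (miR-133a-3p to miR-133b-3p), and for the sum -3.05 to -2.45. The p of a ratio cannot pass 0.05 here, so its kept side of the threshold shows no stability.

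Of the 49 miRNAs, 42 passed the fold cut-off and 49 the adjusted p. The former count was 17 with a pseudocount of 10 RPM, 21 with a mean of at least 10 RPM, 25 under median-of-ratios scaling, 24 for the listed total, 27 without miR-206-3p in it and 23 under quantile normalization, and 35 to 42 with a library left out. The latter was 22 with a mean of at least 10 RPM, which left 22 to test, 26 under median-of-ratios scaling, 24 for the listed total, 26 under quantile normalization and 48 or 49 with a library left out. Under the 4 scalings the count of rises past either rule stayed at 14, while falls past the fold cut-off dropped from 28 to between 9 and 13.

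Replicate numbers recur in both groups, but same-numbered libraries correlated by 0.0047, 0.223 and 0.056 in their deviations, and nothing in the labels ties them. With the replicate block, the changes were -4.96, -1.34 and -2.33 for miR-1a-3p, miR-133a-3p and miR-133a-5p, with adjusted p from 8.69e-05 to 0.00171 (limma), both counts were unchanged at 42 and 49, and the ratios and the sum kept their values, with exact sign-flip p of 0.25 or more, the smallest possible.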
